A study of Rattus norvegicus with 14 samples.

Results

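The transcripts of 44 cell cycle genes, chosen by name, were followed in RNA-seq libraries of cultured rat hippocampal neurons and astrocytes. By their roles they were divided into 10 replication genes, 26 mitosis genes, 6 drivers of the G1 phase and 2 inhibitors of the cyclin-dependent kinases (CDKs). Each table of normalized counts listed 42 of the 44, all of them above the minimum mean of 10 normalized counts, among 15314 genes tested in neurons and 15380 in astrocytes. Ccnb2 and E2f1 were not analysed here.

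Both kinds of culture came from the hippocampi of embryonic day 18 Sprague Dawley rats. On day 10 in culture, neurons were kept for 4 h in the supplement-reduced medium of the Aging Model (AM) and then for 16 h in the same medium with vehicle, 0.001% ethanol (AM-Veh, 4 libraries), or with 100 nM allopregnanolone (Allo), a neurosteroid made from progesterone (AM-Allo, 4 libraries). Astrocytes were enriched by shaking mixed glial cultures, kept for 24 h in medium with charcoal-stripped serum, their form of AM, and treated for 24 h with vehicle (3 libraries) or 100 nM Allo (3 libraries). The labels do not say which libraries came from separate cultures, so p-values measure only the spread between these libraries. Neuron libraries were numbered 1-1, 1-2, 2-1 and 2-2 in each treatment group. What the first part of that number stands for is not given in the labels, and libraries that share it are called set 1 and set 2 here.

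The step between the lowest values put the depth at 19.5 M to 25.2 M reads on genes in neurons and at 22.2 M to 28.1 M in astrocytes, with 1 read worth 0.854 to 1.145 normalized counts. Markers of the labelled cell types were present. Map2, a neuronal microtubule protein, lay at 23908 to 27068 normalized counts in neuron libraries and at 3268 to 4066 in astrocyte libraries, while the nuclear neuron marker Rbfox3 was at 0 to 5.0 in the latter. Neuron libraries also held glial transcripts, with Gfap at 68164 to 118740.0 and the oligodendrocyte precursor receptor Pdgfra at 6138 to 7257. The microglial gene Aif1 was at 1.22 to 5.0 in them. Gfap in astrocyte libraries was at 131338 to 139943. The astrocyte gene Slc1a3 was higher in neuron libraries (57387 to 62381) than in astrocyte libraries (43372 to 46859). Aqp4 was lower, at 23234.5 to 28475.8 and 29242.6 to 33881.7. Summed astrocyte markers (10 genes) overlapped, at 203019 to 263325 in neuron libraries and 250416 to 263026 in astrocyte libraries. Summed neuron markers (11 genes) were at 56147 to 67441 and 26500 to 28123. Astrocyte libraries held the collagen gene Col1a1 at 21319 to 25406 and the microglial receptor gene Csf1r at 256 to 401. In such bulk samples, fewer dividing cells and less of a transcript per cell cannot be told apart, nor can the cell type that carried it.

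Cells enter the cycle when D-type cyclins and then E-type cyclins switch on their CDKs, which releases E2F factors to turn on the genes for DNA synthesis. Mitosis genes follow later, when cyclins A and B with Cdk1 drive the chromosomes onto the spindle and apart. The inhibitors p21 and p27 hold CDKs in check. Mature neurons have left the cycle, while astrocytes and glial precursors in culture can divide.

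The level of each gene was first set side by side between the cultures under vehicle. Neuron and astrocyte tables were each normalized on their own, so levels are set side by side here and were not tested between the cultures. Levels are given as CPM, the normalized counts scaled to a library total of 1 M (mean ± SD, n = 4 for neurons and n = 3 for astrocytes, neurons first). Of the 42 genes, 35 lay within 2-fold of each other in the cultures and 7 did not, a share of 16.7% beside 32.7% of the 14369 genes tested in both cell types. Among mitosis genes, Mki67 and Top2a were close. Mki67, the Ki-67 protein of dividing nuclei, was at 48.7 ± 7.88 and 49.9 ± 6.66. Top2a, which untangles DNA before division, was at 44.4 ± 8.21 and 42.7 ± 2.83. The 25 mitosis genes together made up 0.0359 to 0.0463% of neuron libraries and 0.0479 to 0.0533% of astrocyte libraries, without overlap. For the 10 replication genes the ranges overlapped, at 0.0312 to 0.0382% and 0.0357 to 0.0368%.

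Among replication genes, the helicase subunits that open the double strand were at 35.1 ± 3.57 and 53.2 ± 2.42 for Mcm2, 11.2 ± 3.16 and 15.4 ± 1.43 for Mcm3 and 33.0 ± 5.11 and 33.4 ± 1.93 for Mcm4. The other subunits were at 14.3 ± 3.87 and 14.9 ± 1.85 for Mcm5, 33.3 ± 5.28 and 26.8 ± 1.67 for Mcm6 and 32.9 ± 3.52 and 42.4 ± 1.51 for Mcm7. All 6 were thus within 2-fold between the cultures. Pcna, the clamp that holds the polymerase on DNA, was at 83.3 ± 2.07 and 64.2 ± 0.966. The ribonucleotide reductase subunits, which make the building blocks of DNA, were at 62.1 ± 5.27 and 94.9 ± 0.689 for Rrm1 and 6.42 ± 0.930 and 8.16 ± 1.25 for Rrm2. Tyms, the synthase of the thymine nucleotide, was the replication gene outside the 2-fold range, at 35.2 ± 2.55 and 8.98 ± 0.280, 3.92 times as high in neuron libraries.

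Of the 25 mitosis genes, 24 were within 2-fold. The exception was Cdk1, the kinase that starts mitosis, at 9.92 ± 1.84 and 26.5 ± 0.341, 2.67 times as high in astrocyte libraries. Its partners Ccna2 and Ccnb1 (cyclins A2 and B1) were at 10.4 ± 1.92 and 7.70 ± 1.03 and at 10.3 ± 1.85 and 9.36 ± 0.940. Of the mitotic kinases, Aurka was at 25.1 ± 1.27 and 39.3 ± 0.854 and Aurkb at 36.4 ± 2.02 and 57.2 ± 2.31, both higher in astrocyte libraries by more than the SDs, and Plk1 was at 8.04 ± 1.16 and 9.41 ± 0.995, with overlapping SDs. Of Aurkb's partners in the chromosomal passenger complex, Birc5 was at 4.86 ± 0.307 and 2.54 ± 0.620 and Cdca8 at 9.31 ± 0.971 and 9.46 ± 0.221. The spindle checkpoint kinase Bub1 was at 10.6 ± 1.93 and 13.0 ± 0.507 and its relative Bub1b at 7.18 ± 0.892 and 7.27 ± 1.19.

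For the destruction of mitotic proteins, Cdc20 was at 12.5 ± 1.53 and 16.9 ± 0.50 and Ube2c at 5.62 ± 0.969 and 3.76 ± 0.805. The centromere proteins were at 4.88 ± 0.409 and 3.45 ± 0.908 for Cenpa, 14.3 ± 2.93 and 14.2 ± 0.871 for Cenpe and 22.7 ± 4.13 and 24.5 ± 3.24 for Cenpf. Spindle motors and their helpers also lay within 2-fold, with Kif11 at 15.0 ± 2.50 and 11.8 ± 1.10, Tpx2 at 19.3 ± 2.49 and 20.8 ± 2.71 and Nusap1 at 14.1 ± 2.30 and 12.4 ± 1.78. The proteins that divide the cell body were each higher in astrocyte libraries: Kif20a was at 19.1 ± 1.52 and 27.6 ± 2.52, Kif23 at 9.64 ± 0.782 and 16.3 ± 0.260 and Prc1 at 23.7 ± 4.80 and 41.8 ± 0.989. Ect2 was in the same order (9.37 ± 0.923 and 16.4 ± 0.766), and for Racgap1 the SDs of the cultures overlapped (16.1 ± 4.72 and 21.0 ± 1.34).

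Of the 7 genes over 2-fold apart, 5 were regulators of G1. The D-type cyclins were in opposite order, with Ccnd1 (cyclin D1) at 148 ± 3.91 and 447 ± 19.7, 3.02 times as high in astrocyte libraries, and Ccnd2 (cyclin D2) at 318 ± 27.7 and 73.6 ± 2.49, 4.32 times as high in neuron libraries. Of the E-type cyclins, Ccne1 was at 10.8 ± 1.63 and 1.36 ± 0.0380, 7.96 times as high in neuron libraries, and Ccne2 at 20.1 ± 2.27 and 14.2 ± 1.01. Cdk2, their kinase, was at 20.5 ± 2.11 and 13.1 ± 0.564. The inhibitors were in opposite order too: Cdkn1a (p21) was at 349.6 ± 15.7 and 76.8 ± 5.22, 4.55 times as high in neuron libraries, and Cdkn1b (p27) at 86.9 ± 2.61 and 213 ± 2.44, 2.46 times as high in astrocyte libraries.

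**Figure D1:**
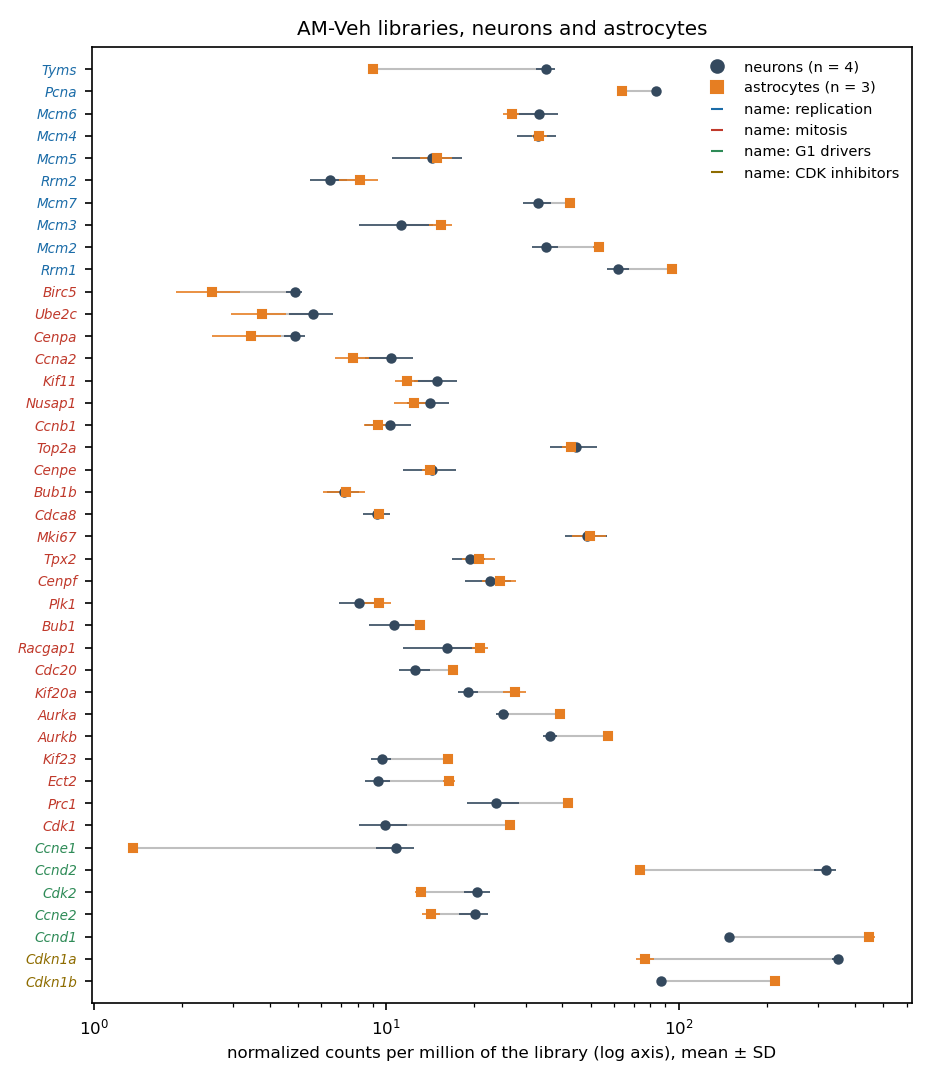
Level of each of the 42 cell cycle genes in AM-Veh libraries, in normalized counts scaled to a library total of 1 M, on a log axis, as mean ± SD of 4 neuron libraries (circles) and 3 astrocyte libraries (squares). Gene names are coloured by role, and Ccne1, Ccnd2, Ccnd1, Cdkn1a, Cdkn1b, Tyms and Cdk1 are the 7 genes over 2-fold apart.

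The next question was how far the libraries of one culture differ among themselves. Within a treatment group, the SD of a gene's log2 value between neuron libraries had a median of 0.23 over the 42 genes and of 0.11 over all genes tested, from 0.050 for Cdkn1b to 0.42 for Mcm3. The libraries that stood apart were those of the sets: within a treatment and set, the median SD was 0.092 for these genes and 0.080 for all. In astrocyte libraries it was 0.11 and 0.093, from 0.015 for Rrm1 to 0.31 for Birc5.

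In neurons, libraries of set 2 had lower cell cycle transcripts than those of set 1, in both treatment groups. Of the 42 genes, 30 fell and 0 rose at an adjusted p under 0.05 (limma on log2 values after adding 1, with treatment in the fit and Benjamini-Hochberg adjustment over all genes tested). Of all genes, 7.61% fell and 9.61% rose in this comparison. The median log2 fold change, set 2 minus set 1, was −0.33 for the 10 replication genes and −0.38 for the 25 mitosis genes, while the median of all genes was −0.003. In 29 of the 42 genes, each library of set 2 lay below each library of set 1, as in 9.47% of all genes tested. In the AM-Veh libraries alone 14 of the 42 genes fell (33.3%, beside 2.11% of all genes in that fit), and in the AM-Allo libraries alone 33 fell (78.6%, beside 6.79%).

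**Figure D2:**
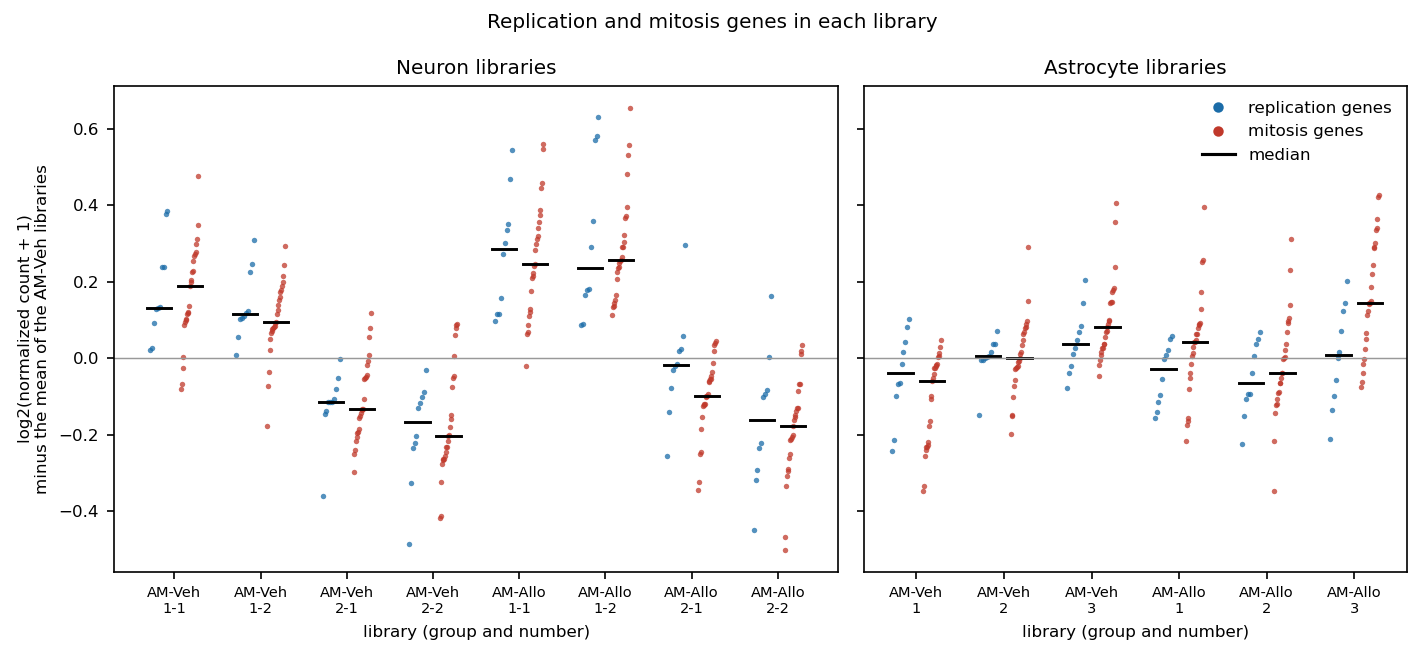
Log2 value of each replication gene (blue, 10 genes) and mitosis gene (red, 25 genes) in each library, minus its mean over the AM-Veh libraries of the cell type, with black bars for the medians. Neuron libraries 1-1 and 1-2 have medians of 0.095 to 0.29 and libraries 2-1 and 2-2 medians of −0.20 to −0.019, in both treatment groups, while medians of the astrocyte libraries lie between −0.066 and 0.14.

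Among replication genes, 9 of 10 fell. Mcm3 had 314, 300.0, 305 and 362 normalized counts in set 1 (AM-Veh first) and 188, 192, 238 and 177 in set 2. The sets did not overlap, at 320.5 ± 28.6 (SD, n = 4) and 199 ± 27.1 (SD, n = 4) (log2 fold change −0.69, SE 0.093, unadjusted p = 2.7e-06, adjusted p = 9.92e-05). Mcm5 was at 403, 366, 427 and 459 in set 1 and 279, 219.8, 321 and 247 in set 2 (log2 fold change −0.64, adjusted p = 0.00016), and Mcm6 at 862, 796, 932 and 937 against 663, 626, 714 and 596 (log2 fold change −0.44, adjusted p = 9.57e-05). These 3 helicase subunits had the largest falls of the list, 38.0%, 35.5% and 26.3% of the set 1 mean. The others were smaller: Rrm2 (−0.34), Mcm4 (−0.33), Mcm7 (−0.33), Rrm1 (−0.23), Mcm2 (−0.22) and Tyms (−0.21) on the log2 scale. Pcna was the replication gene that did not pass, at 1881, 1856, 2001 and 2094 in set 1 and 1842, 1806, 1876 and 1849.8 in set 2 (log2 fold change −0.086, adjusted p = 0.0901), and its sets overlapped.

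Among mitosis genes, 18 of 25 fell. Ube2c was at 144, 139.5, 181 and 136 in set 1 and 110.3, 104, 96.8 and 100.3 in set 2 (log2 fold change −0.53, adjusted p = 0.00425), and Racgap1 at 481, 394, 403 and 379 and 290.1, 258, 337 and 273 (log2 fold change −0.52, adjusted p = 0.00106). Top2a, at 1137, 1126, 1258 and 1199 against 853, 813, 871 and 837, had the smallest p of the 42 genes (log2 fold change −0.48, SE 0.040, unadjusted p = 5.33e-09, adjusted p = 6.64e-07). For all 3 the sets stood apart without overlap. Mki67 fell from 1286 ± 93.7 (SD, n = 4) to 965 ± 38.5 (SD, n = 4) (log2 fold change −0.41, adjusted p = 6.83e-06), again with no overlap. The other genes that fell had log2 fold changes from −0.47 (Ccna2) to −0.20 (Aurkb), among them Cenpf, Kif11, Cenpe, Prc1, Bub1b, Bub1, Nusap1, Ccnb1, Cdk1, Plk1, Ect2 and Tpx2. The 7 that did not pass were Aurka, Kif20a, Cenpa, Cdc20, Kif23, Cdca8 and Birc5, with log2 fold changes from −0.37 (Birc5, adjusted p = 0.108) to −0.062 (Aurka, adjusted p = 0.535). With 1 library left out, 24 to 31 of the 42 genes passed. The lowest count came without AM-Allo 2-2, where Rrm2, Cdk1, Aurkb, Plk1, Bub1b and Ect2 lost their call. Cdk1, Plk1 and Bub1b also lost it without some of the AM-Veh libraries.

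**Figure D3:**
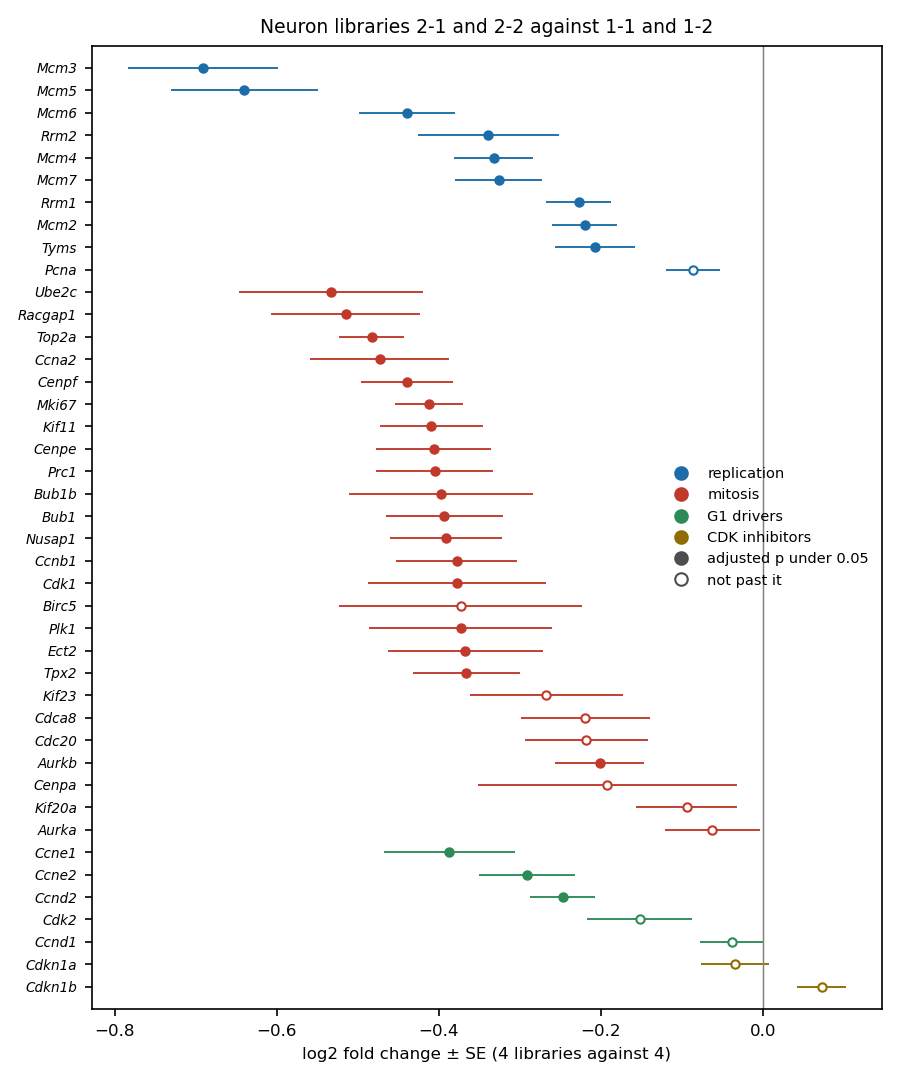
Log2 fold change of each of the 42 cell cycle genes between neuron libraries 2-1 and 2-2 and libraries 1-1 and 1-2, with its SE, from 4 libraries against 4. Filled points passed an adjusted p of 0.05 (30 genes, all lower in set 2), open points did not (12 genes), and Cdkn1b is the single gene above 0.

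The G1 drivers split. Ccne1, at 278, 258, 271 and 255 in set 1 and 219.9, 204, 211 and 178 in set 2, fell (log2 fold change −0.39, adjusted p = 0.00355), as did Ccne2, at 466, 495, 472 and 491 and 387, 429, 387 and 369.6 (log2 fold change −0.29, adjusted p = 0.00267). Ccnd2 fell from 7589 ± 239.5 (SD, n = 4) to 6406 ± 449 (SD, n = 4) (log2 fold change −0.25, adjusted p = 0.000515). In all 3 the sets did not overlap. Ccnd1 was at 3331 ± 127 (SD, n = 4) and 3247 ± 189.5 (SD, n = 4) and did not pass (log2 fold change −0.038, adjusted p = 0.591), nor did Cdk2 (log2 fold change −0.15, adjusted p = 0.131). Of the inhibitors, Cdkn1b had 1834, 1933, 1933 and 1966 in set 1 and 1938, 1999, 2063 and 2066 in set 2 (log2 fold change 0.073, adjusted p = 0.121), and Cdkn1a 7481 ± 366 (SD, n = 4) and 7326 ± 724 (SD, n = 4) (log2 fold change −0.034, adjusted p = 0.648). Neither inhibitor passed the test.

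Other genes of the same processes, which are not among the 44, were lower in set 2 as well. Of 39 other replication genes tested, 19 fell and 0 rose (median log2 fold change −0.22). Pole, a subunit of the leading-strand polymerase, was at 333 ± 29.1 (SD, n = 4) in set 1 and 212 ± 32.0 (SD, n = 4) in set 2 (adjusted p = 0.000256), and Mcm10 and Lig1 were the next by p. Of 54 other mitosis genes, 26 fell and 0 rose (median −0.29), led by the condensin subunit Smc2 (967 ± 49.9 and 766 ± 22.7, SD, n = 4 each, adjusted p = 8.33e-05), the spindle motor Kif4a and Aspm. Of 21 other G1 regulators, 5 fell and 0 rose, Cdk4, E2f8 and Ccnd3 among them. Of 17 p53 targets, 3 fell, Btg2 and Ddit4 among them, and 3 rose, Sesn2 among them. In the order given, 48.7%, 48.1%, 23.8% and 35.3% of these lists passed in either direction, beside 17.2% of all genes tested.

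Markers of cell types differed between the sets too. Of 12 oligodendrocyte lineage markers, 6 were lower in set 2 (Pdgfra, Olig1, Olig2, Mag and Mbp among them) and 3 higher (Bcas1, Gpr17 and Sox10), with log2 fold changes of −0.18 for the precursor marker Pdgfra and −0.96 for the myelin gene Mbp. Their summed level was 80554 to 87017 normalized counts in set 1 and 78442 to 83551 in set 2. Of 10 mesenchymal and fibroblast markers, 4 were lower (Col1a1, Col1a2, Col3a1 and Dcn, by −2.11 on the log2 scale for Col1a1) and 3 higher (Fn1, Pdgfrb and Tagln), with sums of 10786 to 12906 and of 13425 to 17621. Of 10 astrocyte markers, 4 were higher and 2 lower, with Gfap 0.62 higher on the log2 scale and sums of 203019 to 215235 and of 239859 to 263325. Of 9 neural progenitor markers tested, 2 were higher (Nes and Vim) and 2 lower (Hes5 among them), and of 11 neuron markers 3 were higher (Gad1, Gad2 and Syt1) and 0 lower. Microglia markers summed to 110 to 136 and to 167 to 183, with C1qc at 0 in each library of set 2. The part of these cell types in the fall of cell cycle genes was not tested.

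As the members moved together between the sets, their promoters were searched, in the 250 bases before the start of the gene, which RefSeq gave for 32 of the 42 genes on the GRCr8 assembly. The search took E2F sites (TTTCGCGC or TTTGGCGC), known from the promoters of replication genes, the CHR element (TTTGAA), known from those of mitosis genes, and the CCAAT box (CCAAT), all on either strand. An E2F site was found in 5 of 8 replication promoters (62.5%), 1 of 20 mitosis promoters (5.0%) and 0.636% of all 33469 promoters listed. The CHR element was in 1 of 8 replication promoters (12.5%), 10 of 20 mitosis promoters and 16.2% of all, and each of the 10 also had a CCAAT box, a pair that 5.87% of all promoters held. A CCAAT box, with or without a CHR element, was in 6 of 8, 17 of 20 and 34.0%. Neither promoter of the CDK inhibitors had an E2F site or a CHR element, nor did those of the G1 drivers Ccne1 and Cdk2. Genes that fell without either site included Mcm3 (−0.69 on the log2 scale), Kif11 (−0.41) and Ccne1 (−0.39). Birc5, Kif23, Cdca8, Cdc20 and Cenpa had a CHR element and did not pass between the sets. Whether a site goes with the fall was not tested. All sites are matches of letters, and whether they are used was not measured. The 2 replication promoters with an E2F site and the 2 mitosis promoters with a CHR element whose genes fell most are shown 5′ to 3′, with each match in capitals. They were picked by site and by fall, so they do not show that the 2 go together.
Mcm5: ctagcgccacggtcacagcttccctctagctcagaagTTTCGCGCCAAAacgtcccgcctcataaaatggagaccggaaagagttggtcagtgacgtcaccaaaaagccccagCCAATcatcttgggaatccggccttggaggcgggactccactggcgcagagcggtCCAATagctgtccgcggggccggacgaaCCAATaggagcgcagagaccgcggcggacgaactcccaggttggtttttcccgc
Mcm6: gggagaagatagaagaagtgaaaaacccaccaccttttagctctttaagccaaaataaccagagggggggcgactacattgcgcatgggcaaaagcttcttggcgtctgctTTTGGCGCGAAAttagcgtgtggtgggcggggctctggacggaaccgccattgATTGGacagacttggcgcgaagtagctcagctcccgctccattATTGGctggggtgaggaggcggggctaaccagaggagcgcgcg
Top2a: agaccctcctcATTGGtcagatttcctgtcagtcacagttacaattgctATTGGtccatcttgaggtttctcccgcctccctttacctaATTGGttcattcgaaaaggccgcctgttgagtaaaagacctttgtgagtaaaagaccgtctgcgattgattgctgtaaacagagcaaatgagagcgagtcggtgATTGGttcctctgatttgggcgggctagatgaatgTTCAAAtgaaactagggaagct
Mki67: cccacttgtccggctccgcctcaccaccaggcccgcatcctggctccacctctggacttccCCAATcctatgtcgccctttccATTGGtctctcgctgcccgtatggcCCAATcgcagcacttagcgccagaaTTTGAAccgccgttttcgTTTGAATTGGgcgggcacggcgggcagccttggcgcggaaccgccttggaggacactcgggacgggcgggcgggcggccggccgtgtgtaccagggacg
The first lies at chr19:13488563-13488812 on the plus strand, with both forms of the E2F site overlapping on opposite strands from 213 bases before the start and 3 CCAAT boxes. That of Mcm6 lies at chr13:42404353-42404602 on the minus strand and has the same overlapping pair from 139 bases before the start. In Top2a (chr10:84473094-84473343, minus strand) the CHR element, on the opposite strand, starts 22 bases before the start, behind 4 CCAAT boxes. Mki67 (chr1:199952594-199952843, minus strand) has 2 CHR elements, and the second shares its last base with a CCAAT box.

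The comparison the study was made for is that of AM-Allo with AM-Veh. In neurons, the main fit had no term for the set, so its spread between libraries holds the difference between the sets. In that fit, few cell cycle genes differed by more than this spread. At an unadjusted p under 0.05, 1 gene was higher in AM-Allo (Rrm2) and 1 lower (Cdkn1a), 4.76% of the 42, beside 5.69% of all genes tested. After adjustment over all genes 0 of the 42 passed. With the set as a block in limma, 6 were higher and 1 lower at an unadjusted p under 0.05 (16.7%, beside 11.0% of all genes). In that fit 1 passed after adjustment, as described below. In 0 of the 42 genes did the groups stand apart without overlap (3.95% of all genes). The median log2 fold change was 0.089 for replication genes and 0.078 for mitosis genes, with −0.002 for all genes. With 1 library left out these medians ran from 0.008 to 0.17 and from −0.013 to 0.16, both lowest without AM-Allo 1-2 and highest without AM-Allo 2-2. Of the 42 genes, 31 were on the higher side, a share of 73.8% beside 49.2% of all genes. With 1 library left out the number on the higher side ran from 19 (without AM-Allo 1-1 or without AM-Allo 1-2) to 39 (without AM-Allo 2-2). The SE of a gene's log2 fold change ranged from 0.039 (Cdkn1b) to 0.24 (Mcm3). Markers of the oligodendrocyte lineage lay on the same side: 11 of 12 had higher values in AM-Allo, 2 at an unadjusted p under 0.05 by limma (Bcas1 and Cnp) and 8 with the set as a block, with summed levels of 78442 to 82285 in AM-Veh and 82599 to 87017 in AM-Allo. Fewer markers of other lists were higher: 1 of 10 for astrocytes, 3 of 9 for neural progenitors, 5 of 11 for neurons and 4 of 10 for mesenchymal cells and fibroblasts. The part of these cell types in the values of the cell cycle genes was not tested.

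Rrm2, the regulated subunit of ribonucleotide reductase, had 151, 165, 130.3 and 122 normalized counts in AM-Veh libraries 1-1, 1-2, 2-1 and 2-2 and 206, 219, 173 and 158 in the AM-Allo libraries of the same numbers. Each AM-Allo library was above both AM-Veh libraries of its set, though the groups overlapped when the sets were pooled. Their means were 142 ± 19.4 (SD, n = 4) and 189 ± 28.3 (SD, n = 4), 33.2% higher in AM-Allo (log2 fold change 0.41, SE 0.13, unadjusted p = 0.0107, adjusted p = 0.671). An exact permutation test, two-sided, on the difference of mean log2 values gave p = 0.0571, where the smallest p this design allows is 0.0286. The test moved libraries between the groups without regard to the set. With the first part of the number as a block, Rrm2 passed after adjustment (adjusted p = 0.0484), and with the whole number as a block it did not (adjusted p = 0.0671). It was higher in each set alone, by 0.43 in set 1 and 0.39 in set 2 on the log2 scale. Its unadjusted p stayed between 0.00426 and 0.0349 when 1 library was left out.

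Cdkn1a, which codes for p21, had 7194, 7904, 8066 and 7827 in AM-Veh and 7669.9, 7157, 6651 and 6761 in AM-Allo, in the same order of numbers. The 3 highest libraries were AM-Veh and the 3 lowest AM-Allo, but AM-Veh 1-1 lay below AM-Allo 1-1. The means were 7748 ± 383 (SD, n = 4) and 7059.7 ± 461 (SD, n = 4) (log2 fold change −0.14, SE 0.051, unadjusted p = 0.0232, adjusted p = 0.783, exact permutation p = 0.0571). In set 2 the difference was −0.24 on the log2 scale (adjusted p = 0.00236 over all genes in set 2 alone, from 2 libraries against 2), while in set 1 it was −0.025. The test of that difference between the sets gave an unadjusted p of 0.00289 and an adjusted p of 0.241. Without AM-Veh 1-2, AM-Veh 2-1, AM-Allo 2-1 or AM-Allo 2-2, the unadjusted p was 0.0569, 0.0677, 0.0697 and 0.0635. The other inhibitor, Cdkn1b, was at 1834, 1933, 1938 and 1999 and 1933, 1966, 2063 and 2066 (log2 fold change 0.059, SE 0.039, unadjusted p = 0.154, adjusted p = 0.948).

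**Figure D4:**
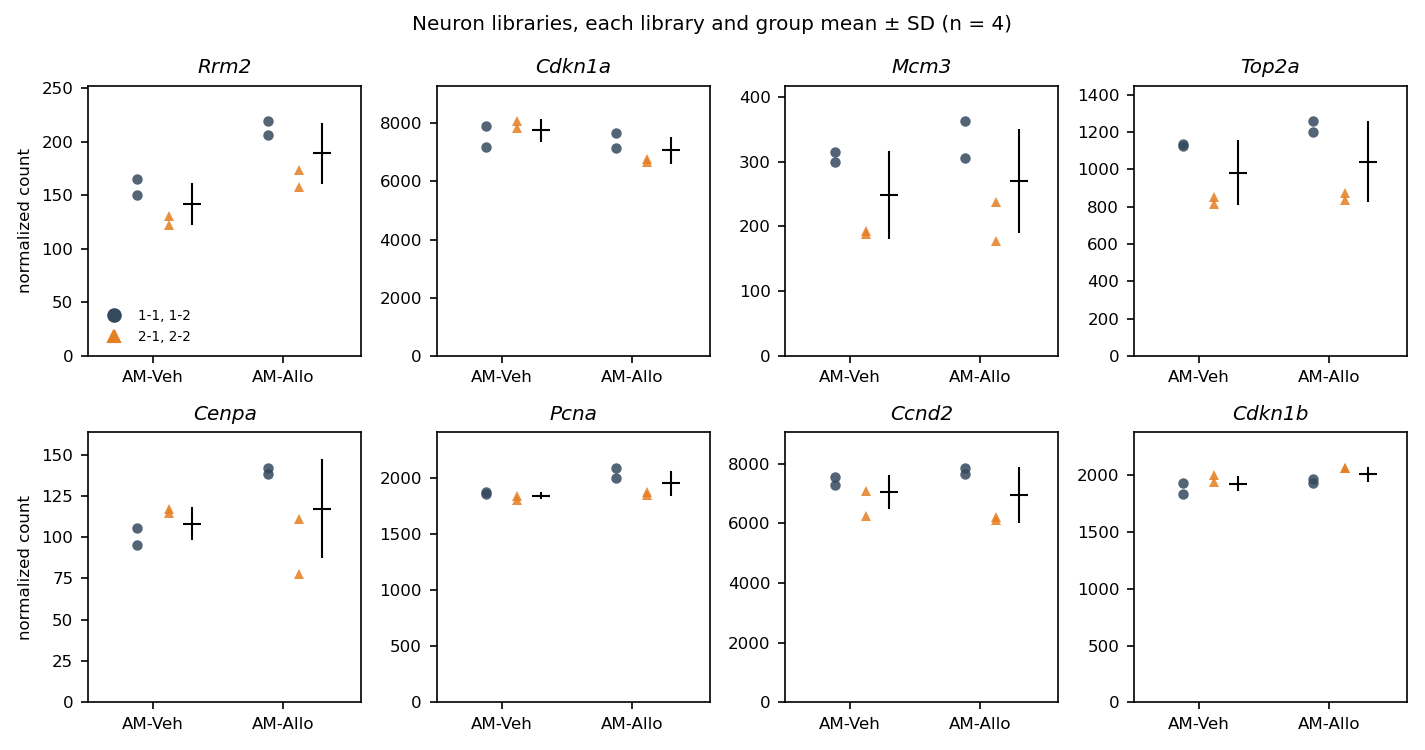
Normalized counts of 8 cell cycle genes in each neuron library, with circles for libraries 1-1 and 1-2, triangles for 2-1 and 2-2, and bars for the group mean ± SD (n = 4). Mcm3 and Top2a are separated by set in both groups, each AM-Allo library of Rrm2 lies above the AM-Veh library of its number, and Cdkn1a is lower under Allo in set 2.

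The markers of dividing cells overlapped between the groups. Mki67 was at 1163, 1267, 975 and 909 under vehicle and at 1333, 1379, 998 and 977 under Allo (log2 fold change 0.11, SE 0.14, unadjusted p = 0.417, adjusted p = 0.996), and Top2a at 1137, 1126, 853 and 813 and 1258, 1199, 871 and 837 (log2 fold change 0.078, adjusted p = 0.998). For both, every library of set 1 was above every library of set 2, and within each set the AM-Allo libraries were above the AM-Veh libraries for Mki67 but not, in set 2, for Top2a. Pcna had 1881, 1856, 1842 and 1806 under vehicle and 2001, 2094, 1876 and 1849.8 under Allo (log2 fold change 0.081, adjusted p = 0.892), and Rrm1 1498, 1424, 1298 and 1277 and 1690.0, 1552, 1389 and 1295 (log2 fold change 0.10, adjusted p = 0.976). Tyms had the largest difference downward of the replication genes, at 779 ± 50.3 (SD, n = 4) and 758 ± 87.2 (SD, n = 4) (log2 fold change −0.043, adjusted p = 0.998).

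The largest difference upward among mitosis genes was that of Cdk1, at 267, 229, 209.6 and 173 and 234, 342, 215 and 219.7 (log2 fold change 0.19, SE 0.17, unadjusted p = 0.271, adjusted p = 0.985), where AM-Allo 1-2 was far above the other AM-Allo libraries. The largest downward was that of Bub1, at 235 ± 40.8 (SD, n = 4) and 223 ± 32.4 (SD, n = 4) (log2 fold change −0.075, adjusted p = 0.998). Of the cyclins, Ccnd1 was at 3346, 3263, 3320.3 and 3187 and 3502, 3211, 3463 and 3019 (log2 fold change 0.006, adjusted p = 0.998) and Ccnd2 at 7284, 7557, 7073 and 6244 and 7860.3, 7656, 6206 and 6100.2 (log2 fold change −0.023, adjusted p = 0.998). Ccne1 had the largest downward difference of the G1 drivers, at 239.7 ± 34.1 (SD, n = 4) and 229 ± 42.1 (SD, n = 4) (log2 fold change −0.075, adjusted p = 0.998). None of these 5 genes passed at an unadjusted p under 0.05.

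With the set as a block, the fit in which libraries are compared within their set, 7 genes had an unadjusted p under 0.05 in place of 2: Rrm2, Pcna, Rrm1, Mki67, Kif11 and Tpx2 were higher and Cdkn1a lower. That is 16.7% of the 42, beside 11.0% of all genes in the same fit, and Rrm2 was the 1 gene past adjustment. With the replicate block by whole number, 8 genes had an unadjusted p under 0.05, Mcm5 being the gene added (8 of the 42, beside 10.7% of all genes), and 0 passed after adjustment. On the authors' VST values, where both sets have the same mean over all their libraries, 10 had an unadjusted p under 0.05 (23.8%, beside 14.4% of all genes). That fit had no term for the set although the set means were equal, so its p-values may be too small. In set 1 alone, 14 of the 42 genes were higher and 0 lower at an unadjusted p under 0.05 (33.3%, beside 7.97% of all genes) and 0 passed after adjustment by limma, with medians of 0.14 for replication and 0.12 for mitosis genes. At that threshold 8 of the 12 oligodendrocyte lineage markers were also higher in set 1, and of the 11 neuron markers 6 were lower and 2 higher. The part of these markers in the values of the cell cycle genes was not tested. In set 2 alone, 1 was higher (Rrm2) and 2 were lower, Cdkn1a and Ccnd2 (7.14%, beside 12.5% of all genes), with medians of 0.030 and 0.037.

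Whether the response to Allo differed between the sets was tested directly. At an adjusted p under 0.05, 0 of the 42 genes differed by limma, and at an unadjusted p under 0.05, 6 did, each with a lower Allo effect in set 2 (14.3%, beside 9.53% of all genes). Besides Cdkn1a these were Cenpa, Ccnd2, Birc5, Kif23 and Aurkb. Cenpa, the histone of the centromere, had 106, 95.2, 138 and 142 in set 1 and 117, 115, 111 and 77.6 in set 2, the AM-Veh pair first in each. Its groups thus stood apart in opposite directions, as they did in 4 of the 42 genes (9.5%) and in 6.95% of all genes (for Cenpa, difference of log2 fold changes −0.79, SE 0.25, unadjusted p = 0.00637, adjusted p = 0.309). Neuron markers moved with this difference the other way: 11 of 11 tested had a higher Allo effect in set 2, 10 of them at an unadjusted p under 0.05 and 0 after adjustment, with a median log2 fold change of −0.22 in set 1 and 0.081 in set 2. Their summed level was 56147 to 62412 in AM-Veh and 58284 to 67441 in AM-Allo, and their part in the difference was not tested.

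Of the other genes of these processes in neurons, few differed under Allo in the fit without the set. Of 39 other replication genes and 54 other mitosis genes, 0 had an unadjusted p under 0.05 by limma (0 and 3 with the set as a block). Slbp, Cdc7 and Rpa2 had the lowest p among the former and Cdca2, Stmn1 and Pimreg among the latter. Of 21 other G1 regulators 1 was higher, the CDK inhibitor Cdkn1c (p57), at 3869 ± 168 under vehicle and 4217 ± 79.2 under Allo (SD, n = 4 each, log2 fold change 0.12, unadjusted p = 0.00572, adjusted p = 0.65). Of 17 p53 targets 1 was higher, Plk2 (log2 fold change 0.16, unadjusted p = 0.0271, adjusted p = 0.792), and with the set as a block 2 were higher and 4 lower. In the fit without the set, 4.76% of these G1 regulators and 5.88% of the p53 targets were called, beside 5.69% of all genes. With the set as a block, 5.56% of these mitosis genes and 35.3% of the p53 targets were, beside 11.0% of all genes.

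In astrocytes, 1 of the 42 genes, Bub1b, had an unadjusted p under 0.05 by limma, a share of 2.38% beside 7.01% of all genes tested, and 0 passed after adjustment. The median log2 fold change was −0.013 for replication genes and 0.063 for mitosis genes, with 0.001 for all genes. With 1 library left out they ran from −0.053 (without AM-Veh 1) to 0.006 (without AM-Allo 2) and from 0 (without AM-Veh 1) to 0.099 (without AM-Veh 3). The groups stood apart without overlap in 5 genes, 3 higher in AM-Allo (Bub1b, Rrm1 and Prc1) and 2 lower (Tyms and Bub1), 11.9% of the 42 beside 12.5% of all genes.

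Bub1b, the checkpoint protein BubR1, had 146, 171 and 203 in AM-Veh and 226, 214 and 232 in AM-Allo. The 3 AM-Allo libraries were all above the 3 AM-Veh libraries, whose own values were spread more widely. The means were 174 ± 28.6 (SD, n = 3) and 224 ± 9.19 (SD, n = 3), 29.0% higher in AM-Allo (log2 fold change 0.38, SE 0.12, unadjusted p = 0.00972, adjusted p = 0.529). The exact permutation p was 0.1, the smallest that 3 libraries against 3 allow. Without AM-Veh 1, the lowest library, the unadjusted p was 0.0544. The values of its relative Bub1 lay lower under Allo, at 306, 325 and 300.2 and 275, 286 and 297, and did not pass (log2 fold change −0.12, SE 0.084, unadjusted p = 0.179, adjusted p = 0.823).

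Of the replication genes in astrocytes, Mcm2 had the largest difference upward, at 1209.5, 1270.0 and 1329 and 1266, 1329 and 1383 (log2 fold change 0.063, adjusted p = 0.848), and Rrm2 the largest downward, at 163, 198 and 223 and 175, 174 and 167 (log2 fold change −0.17, SE 0.12, exact permutation p = 0.4). The groups of Mcm2 and of Rrm2 overlapped. Tyms had 221, 214 and 209 and 192, 183 and 200.1 (log2 fold change −0.16, adjusted p = 0.796), Rrm1 2243, 2272 and 2283 and 2345, 2324 and 2379 (log2 fold change 0.052, adjusted p = 0.823). Pcna was at 1532 ± 20.8 (SD, n = 3) and 1491 ± 58.3 (SD, n = 3) (log2 fold change −0.040, adjusted p = 0.903), a difference within the spread.

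Mki67 was at 1016, 1222 and 1334 under vehicle and at 1141, 1071 and 1308 under Allo (log2 fold change −0.017, adjusted p = 0.986), Top2a at 1019 ± 69.1 (SD, n = 3) and 1052 ± 71.8 (SD, n = 3) (log2 fold change 0.045, adjusted p = 0.923), and Aurkb at 1364 ± 49.8 (SD, n = 3) and 1300.0 ± 80.4 (SD, n = 3) (log2 fold change −0.071, adjusted p = 0.832). Ect2 had the largest difference downward of the mitosis genes, at 376, 414 and 387 and 349.6, 308 and 432 (log2 fold change −0.12, adjusted p = 0.858). In these 4 the groups overlapped.

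Of the G1 regulators in astrocytes, Ccnd1 was at 10116, 11110.2 and 10821 and 10295, 11604 and 11842 (log2 fold change 0.073, adjusted p = 0.823), and Ccnd2 at 1699, 1830.1 and 1743 and 1699.6, 1660.0 and 1701 (log2 fold change −0.058, adjusted p = 0.828). Ccne1 had the largest difference upward, at 32.5 ± 0.974 (SD, n = 3) and 39.3 ± 10.1 (SD, n = 3) (log2 fold change 0.24, adjusted p = 0.887), and Ccne2 the largest downward, at 339.8 ± 25.1 (SD, n = 3) and 320.3 ± 47.9 (SD, n = 3) (log2 fold change −0.094, adjusted p = 0.908). Cdkn1a was at 1684, 1928 and 1887 and 1823, 1818 and 1854 (log2 fold change 0.001, adjusted p = 0.999), and Cdkn1b was at 5095 ± 67.5 (SD, n = 3) and 5029.9 ± 143 (SD, n = 3) (log2 fold change −0.019, adjusted p = 0.953). None of these 6 passed.

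**Figure D5:**
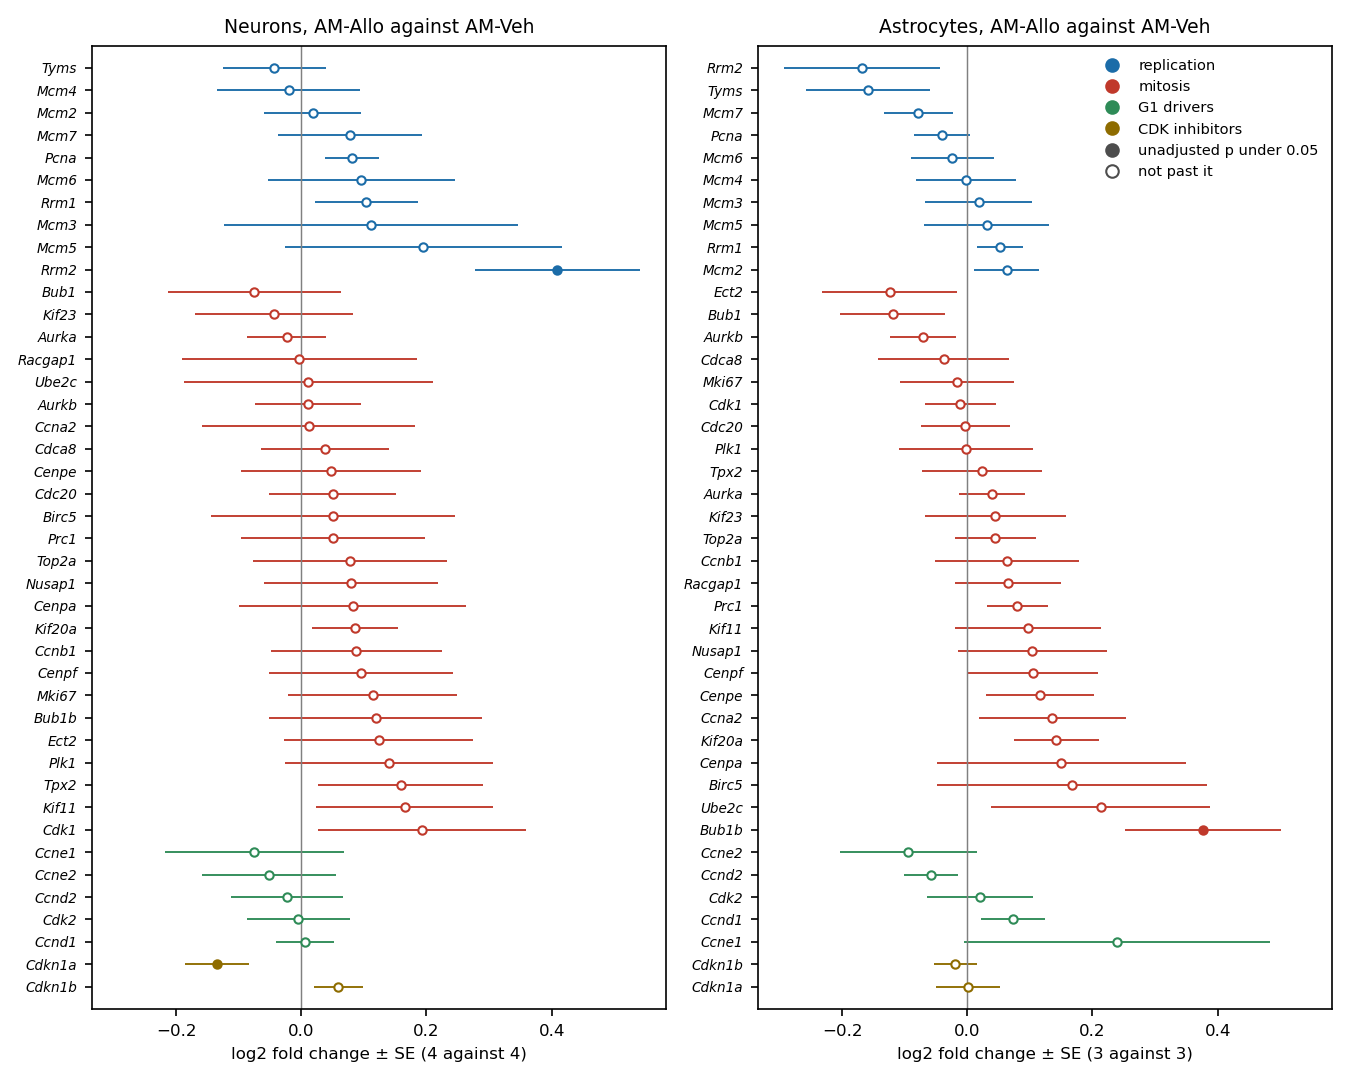
Log2 fold change of each of the 42 cell cycle genes between AM-Allo and AM-Veh with its SE, in neurons (4 libraries against 4) and astrocytes (3 against 3), ordered within each role. The fit had no term for the set, so SEs in neurons include the difference between the sets. Filled points had an unadjusted p under 0.05: Rrm2 and Cdkn1a in neurons and Bub1b in astrocytes.

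Of the other genes in astrocytes, 2 of 39 replication genes were higher at an unadjusted p under 0.05, among them Uhrf1 (239 ± 21.0 and 280.0 ± 7.67, SD, n = 3 each, unadjusted p = 0.0303, adjusted p = 0.684 by limma). Of 54 mitosis genes 2 were higher, Ndc80 and Foxm1, a factor that turns on mitosis genes (203 ± 12.1 and 241 ± 25.0, SD, n = 3 each, unadjusted p = 0.0437, adjusted p = 0.709), and 1 was lower, Cdca5. Of 21 G1 regulators 1 was higher, Myc, and of 17 p53 targets 2 were higher, Ddit4 and Phlda3. These counts were 5.13% of the replication genes, 5.56% of the mitosis genes, 4.76% of the G1 regulators and 11.8% of the p53 targets, beside 7.01% of all genes tested. After adjustment 0 genes of these lists passed.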

How the data were processed

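Poly(A)-selected, stranded RNA-seq libraries of rat hippocampal neurons (8) and astrocytes (6) were analysed from the deposited tables. The authors quantified reads with Salmon (version 0.14) and normalized them with DESeq2 (version 1.18.1), neurons and astrocytes separately. The deposited signal is thus a gene count divided by normalization factors. Low values were whole reads, within 0.1 of a read, in 60.8 to 84.9% of cases in neuron libraries and 41.2 to 80.2% in astrocyte libraries, so no count test was run. The authors also deposited variance-stabilized (VST) log2 values. In the neuron VST table both sets of libraries had the same mean for each of 18239 genes (largest difference 7.5e-09, against 4.64 on the log2 normalized counts), so no set difference can be tested there.

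Genes with a mean of at least 10 normalized counts (15314 in neurons, 15380 in astrocytes) were tested on log2(value + 1) with limma (version 3.58.1, R 4.3.3), lmFit and eBayes with a variance trend, with Benjamini-Hochberg adjustment over all of them. Fold changes on this scale understate the change of low genes. Neuron libraries with the same number deviated together from their group means (r from 0.229 to 0.296). Those that share only the first part did so nearly as much (r from 0.185 to 0.236). Between numbers that differ in the first part, r was −0.319 to −0.15. The first principal component (31.9% of variance) separated the sets. Fits with the first part and with the whole number as a block therefore stand beside the neuron results. In astrocytes r was −0.007 to 0.024 for the same number. Exact permutation tests were two-sided.

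Library values are given for genes with an unadjusted p under 0.05, those with the largest differences and highest levels of each role, and Cdkn1a, Cdkn1b, Ccnd1, Ccnd2, Mki67, Top2a and Pcna. The genes and lists were chosen with earlier results of these data known. Alternatives were another pseudocount (5), no filter or a minimum mean of 50, upper-quartile and quantile scaling, VST values, no variance trend, robust estimation, replicate blocks, vehicle or Allo libraries alone, no treatment term, and 1 library left out. Transcript lengths were not used, so levels were not compared between genes. Symbols turned into dates by a spreadsheet (21 in the neuron and 24 in the astrocyte table) held no member. Promoters came from RefSeq (GRCr8), whose gene models differ from those the authors counted on. Some genes of the lists are counted but not reported here by name.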

Additional observations from a re-analysis of the deposited data

Results flagged for a closer look

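Cdk1 had 342 normalized counts in neuron library AM-Allo 1-2, while the other AM-Allo libraries had 215 to 234. It was the 1 library that stood apart by Dixon's criterion among 84 groups of 4 tested, and chance alone marks about 5% of groups.

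The response to Allo ran in opposite directions in the neuron sets, with no overlap of AM-Allo and AM-Veh in either, for 4 of the 42 genes (9.5%), beside 6.95% of all genes tested. For Birc5 the log2 fold change was 0.38 in set 1 and −0.28 in set 2, a difference of −0.66 (unadjusted p = 0.0192, adjusted p = 0.403 by limma). Cenpa had 0.48 and −0.31, a difference of −0.79 (unadjusted p = 0.00637, adjusted p = 0.309 by limma). The difference was −0.37 for Kif23 (unadjusted p = 0.0426, adjusted p = 0.502 by limma) and −0.17 for Ccnd2 (unadjusted p = 0.017, adjusted p = 0.389 by limma). None of the 4 passed after adjustment over all genes, and each set holds 2 libraries per treatment.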

How the results depend on the processing

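The count of cell cycle genes at an unadjusted p under 0.05 for Allo in neurons, 2 as reported, was 1 without a variance trend. It was 7 with the set as a replicate block and 8 with the whole number as a replicate block. On VST values, where both sets have the same mean and the fit had no term for the set, it was 10. The share of all genes was 5.69% as reported, 11.0% and 10.7% with these blocks and 14.4% on VST values. With 1 library left out it was 1 to 3, and the median log2 fold change ran from 0.008 to 0.17 for replication genes and from −0.013 to 0.16 for mitosis genes, negative without AM-Allo 1-1 or AM-Allo 1-2. In astrocytes the count, 1 as reported, was 2 without a variance trend and 1 to 2 with 1 library left out, where the median of replication genes was −0.053 to 0.006 and that of mitosis genes 0 to 0.099. The pairing by number in astrocytes changed no count.

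Between the neuron sets, 30 genes passed as reported, 14 in vehicle libraries alone, where 4 of the 8 libraries enter, and 24 to 31 with 1 library left out. The replication median was −0.28 in vehicle libraries alone and the mitosis median −0.43 in Allo libraries alone. VST values were not used for the comparison of the sets, as both sets have the same mean there. The filters, pseudocount, scalings and robust estimation left these counts within 1.5 times, and under them no single-gene call or list median reversed. With 1 library left out, the median of mitosis genes under Allo in neurons and that of replication genes in astrocytes did change sign. The cause of the shifts was not tested. With 4 or 3 libraries a group, a gene's SE reached 0.24 on the log2 scale, which limits the size of difference that could be seen.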
